A study of Rattus norvegicus with 12 samples.

Results

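The rat major histocompatibility complex (MHC), called RT1, and the genes that load its products with peptide were described in the kidney cortex of rats with a mutated Xdh gene. The members were all genes of the deposited count table whose symbol starts with RT1-, plus 10 partners, namely Cd74, Ciita, B2m, Tap1, Tap2, Tapbp, Psmb8, Psmb9, Psmb10 and Nlrc5. This gave 41 of the 32623 genes in the table. They comprised 21 class I RT1 genes, 10 class II RT1 genes, 8 partners of class I and 2 partners of class II. All 31 RT1 genes were listed on chromosome 20 of build Rnor_6.0.

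Messenger RNA was sequenced in 12 libraries of kidney cortex taken at an age of 6 weeks from male rats of the strain SS-Xdhem1Mcwi, which carries the mutation on the SS (Dahl salt-sensitive) background. The groups were littermates, with 4 wild-type libraries (WT), 4 heterozygous libraries (HET, 1 mutated allele) and 4 homozygous libraries (HOMO, both alleles mutated). Xdh encodes xanthine dehydrogenase, which makes uric acid, and all 3 groups shared strain, sex, age and tissue. Separate animals behind the libraries are not named in the labels, so the p-values cover only the spread among the libraries as sampled, part of which may be technical.

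Libraries held 18995464 to 37023629 counts. Xdh stood at 212 to 380 CPM (read counts scaled to a common library size with TMM factors, which correct for composition) in WT, 140 to 197 in HET and 57.6 to 61.7 in HOMO libraries 1, 2 and 4. The library labelled HOMO replicate 3 stood at 230, within the WT range, so its values are marked throughout and counts are also given without it. Over all genes tested, its log2 CPM correlated at 0.972 to 0.979 with the other HOMO libraries and at 0.850 to 0.869 with WT. Its summed level of 7 proximal tubule markers was 1606 CPM, against 1724 to 1945 in the other HOMO libraries and 16778 to 20846 in WT. The mitochondrial share of counts was 14.4 to 17.0% in WT, 12.9 to 18.6% in HET and 5.97 to 6.75% in HOMO. HOMO and WT libraries differed in most genes: edgeR's quasi-likelihood test with Benjamini-Hochberg adjustment called 71.7% of the 15856 genes tested. Of all genes tested, 37.0% were called higher in HOMO and 34.7% lower. With library size alone as the scale the median of all genes moved from a log2 fold change of 0.04 to 0.65, and 10292 of the 12856 calls were then higher, against 5861 of 11369. Changes below are relative to the TMM scale, and "rose", "fell" and "called" refer to an adjusted p under 0.05.

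MHC class I molecules sit on nearly all nucleated cells and show them peptides made by the proteasome, while class II molecules are mainly made by antigen-presenting cells such as dendritic cells, macrophages and B cells and show peptides from engulfed material. A class I heavy chain pairs with beta-2-microglobulin (B2m) and is filled with peptides that Tap1 and Tap2 pump into the endoplasmic reticulum, with tapasin (Tapbp) as the bridge. A class II molecule is an alpha and a beta chain held by the invariant chain Cd74, and its genes are switched on through Ciita, which acts on proteins bound to the X and Y boxes of the promoter. Nlrc5 is the relative of Ciita that acts on class I genes, and interferon gamma raises both sets.

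Promoters of the most abundant members per length are shown because these boxes are the known control elements of class II genes. The windows are the 250 bases before the RefSeq gene start on build GRCr8, which is another build than that of the counts. They come from the reference rat and not from the SS strain. Capitals mark the Y box ATTGG or its reverse complement CCAAT, the X1 box core AGCAAC on either strand, and the interferon element core GAAANNGAA on either strand. All 6 genes lie on the plus strand. Cd74 was at chr18:56526956-56527205, B2m at chr3:129549080-129549329, RT1-Ba at chr20:4576807-4577056, RT1-Da at chr20:4515165-4515414, RT1-A2 at chr20:4872621-4872870 and RT1-A1 at chr20:4906959-4907208.
RT1-Da: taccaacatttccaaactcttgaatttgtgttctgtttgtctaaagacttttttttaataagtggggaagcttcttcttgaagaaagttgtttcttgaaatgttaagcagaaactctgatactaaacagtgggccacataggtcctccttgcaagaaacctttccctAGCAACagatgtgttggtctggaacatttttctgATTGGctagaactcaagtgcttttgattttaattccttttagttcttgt
RT1-Ba: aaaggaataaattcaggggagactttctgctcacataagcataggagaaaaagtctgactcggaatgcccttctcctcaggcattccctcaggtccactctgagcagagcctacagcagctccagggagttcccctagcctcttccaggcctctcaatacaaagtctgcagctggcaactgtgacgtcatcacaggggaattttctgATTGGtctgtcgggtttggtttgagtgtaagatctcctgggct
Cd74: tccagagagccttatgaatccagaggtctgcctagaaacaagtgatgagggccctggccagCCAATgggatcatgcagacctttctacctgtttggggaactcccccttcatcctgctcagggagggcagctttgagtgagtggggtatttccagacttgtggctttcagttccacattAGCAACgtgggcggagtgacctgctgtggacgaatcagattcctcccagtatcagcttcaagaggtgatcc
RT1-A2: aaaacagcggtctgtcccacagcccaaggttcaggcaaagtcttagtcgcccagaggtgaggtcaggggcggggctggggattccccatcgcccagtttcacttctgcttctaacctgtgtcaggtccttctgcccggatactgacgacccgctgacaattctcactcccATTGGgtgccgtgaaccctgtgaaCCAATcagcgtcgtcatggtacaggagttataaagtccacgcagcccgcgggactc
RT1-A1: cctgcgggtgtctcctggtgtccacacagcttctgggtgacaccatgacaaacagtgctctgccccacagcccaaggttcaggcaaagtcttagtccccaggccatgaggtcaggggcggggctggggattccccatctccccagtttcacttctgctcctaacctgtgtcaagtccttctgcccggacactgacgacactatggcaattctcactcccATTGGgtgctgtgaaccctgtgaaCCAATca
B2m: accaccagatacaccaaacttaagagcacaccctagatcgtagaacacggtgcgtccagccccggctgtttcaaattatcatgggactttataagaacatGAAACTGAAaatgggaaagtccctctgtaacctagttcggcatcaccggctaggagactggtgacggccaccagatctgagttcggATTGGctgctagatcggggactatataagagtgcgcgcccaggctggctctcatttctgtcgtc

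RefSeq promoters were found for 35 of the 41 members. Of the 9 class II RT1 promoters, 9 held the Y box and 6 also held the X1 box core. In those 6 genes (RT1-DOa, RT1-DOb, RT1-Da, RT1-Db1, RT1-Db2 and RT1-Ha) the first base of the X1 core lay 31 to 34 bases before the first base of the Y box on the plus strand of the gene. RT1-Ba held the Y box with no exact match to the 6 letters of the X1 core. A near match, ggcaac, lay before its Y box. Cd74 held both, with the X1 core starting at base -71 and CCAAT at base -189 from the gene start, in the reverse order. Of the 18 class I RT1 promoters, 13 held the Y box, 3 the X1 core and 1 both. For the 7 class I partner promoters these counts were 2, 1 and 0. Among all 33469 RefSeq promoters, 34% held the Y box, 12.1% the X1 core and 3.96% both. The interferon core was in 0 of 9 class II RT1 promoters, 3 of 18 class I RT1 promoters and 5 of 7 class I partner promoters (B2m, Psmb10, Tap1, Tap2 and Tapbp), against 8.12% of all promoters. The RT1-A1 and RT1-A2 windows shared 90.5% of bases over an aligned stretch of 201 columns. Only exact letters were counted, so a window without a match may still hold a variant of a box or of the interferon element. A match describes these letters and shows no binding.

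Of the 41 members, 35 had enough counts to be tested, and 29 of them rose in HOMO against WT. None was called lower and 6 were not called, with a median log2 fold change of 1.12 against 0.04 over all genes tested. A count of 29 of 35 called higher compares with the 37.0% of all genes called higher. The HOMO and WT values did not overlap, with HOMO higher, for 26 of the 35, against 34.2% of all genes. Without the library labelled HOMO replicate 3 the count was 29 and the median 1.12. By role, 7 of 7 class II RT1 genes tested rose (median 1.63), as did 2 of 2 class II partners, 12 of 18 class I RT1 genes (median 0.89) and 8 of 8 class I partners (median 1.41). In bulk tissue, more cells of a type and more RNA per cell cannot be told apart. In the authors' deposited table, 26 of 35 members were higher and 1 lower at a false discovery rate under 0.05, and the 26 were also called here in the same direction.

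**Figure D1:**
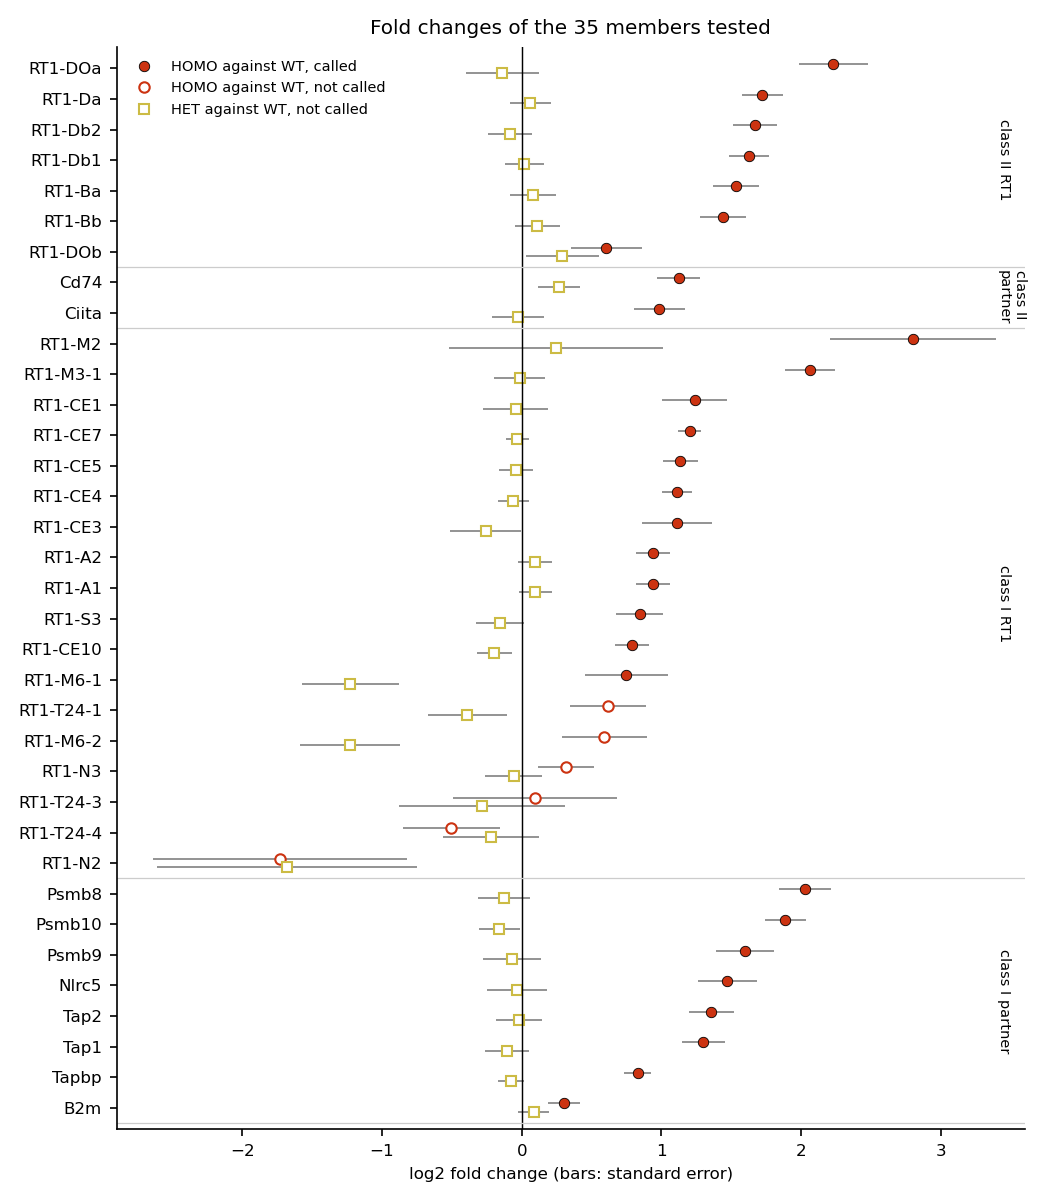
Log2 fold change (x axis) of the 35 members tested, with standard errors as bars, for HOMO against WT (red circles, filled where called) and HET against WT (yellow squares, none called), grouped by role. HOMO values of class II RT1 genes run from 0.61 to 2.23, and those of class I RT1 genes from -1.73 to 2.80.

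Markers of immune cells rose alongside. All 10 macrophage markers rose (median log2 fold change 3.01), and their summed level was 246 to 381 CPM in WT, 290 to 348 in HET and 2035 to 2976 in HOMO. Of 8 dendritic cell markers 7 rose, with sums of 14.8 to 31.2 CPM in WT, 17.8 to 24.1 in HET and 46.2 to 65.7 in HOMO. The B cell markers were scarce, with 4 of 5 tested and 4 rising, and sums of 0.643 to 1.17 CPM in WT, 1.004 to 1.93 in HET and 4.91 to 8.80 in HOMO. All 7 T cell markers rose, with sums of 13.8 to 26.1 CPM in WT, 19.6 to 27.4 in HET and 92.4 to 125 in HOMO. Ptprc, the pan-leukocyte CD45 gene, stood at 11.1 to 20.4 CPM in WT, 14.3 to 20.7 in HET and 60.7 to 78.8 in HOMO. The 7 proximal tubule markers all fell (median -3.93). Of 5 endothelial markers, Cdh5 and Erg rose and Kdr, Emcn and Tek fell, and their sum was 187 to 307 CPM in WT, 197 to 297 in HET and 152 to 173 in HOMO. With library size alone 2 of these 5 were called higher and 1 lower. None of the tested immune markers was at 0 in a whole group. The part of these shifts in the results on the members was not tested.

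The class II alpha and beta chains of the RT1-B and RT1-D pairs were among the most abundant members and rose together. RT1-Da (ENSRNOG00000032844), the RT1-D alpha chain, stood in replicate order at 172, 153, 125 and 147 CPM in WT, at 186, 148, 135 and 154 in HET (replicates 1, 2, 4 and 5, the order used throughout) and at 415, 534, 412 and 608 in HOMO. Each HOMO value, the library labelled replicate 3 included, was above all 8 other values. The log2 fold change against WT was 1.72 ± 0.15 (SE, adjusted p = 2.91e-07 by edgeR), and 1.80 without that library.

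RT1-Db1, its beta chain, stood at 104, 78.6, 75.1 and 93.9 CPM in WT, at 99.9, 87.7, 82.7 and 86.3 in HET and at 227, 311, 223 and 326 in HOMO. RT1-Db2, another beta chain gene that was scarcer, stood at 8.13, 5.75, 6.39 and 6.64 in WT, at 6.54, 6.75, 6.63 and 5.45 in HET and at 17.9, 24.3, 17.3 and 26.5 in HOMO. HOMO libraries 2 and 4 were the high ones for both genes, and all HOMO values lay above the WT and HET values. Their log2 fold changes against WT were 1.63 ± 0.14 for RT1-Db1 and 1.67 ± 0.16 for RT1-Db2.

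RT1-Ba, the RT1-B alpha chain, stood at 126, 107, 80.3 and 101 CPM in WT, at 135, 105, 97.9 and 100 in HET and at 255, 321, 249 and 376 in HOMO. RT1-Bb, its beta chain, stood at 147, 110, 90.5 and 128 in WT, at 150, 124, 127 and 112 in HET and at 277, 381, 264 and 368 in HOMO. WT and HET values of both were mixed, and all HOMO values lay above them. The rises were 1.53 ± 0.17 for RT1-Ba and 1.44 ± 0.16 for RT1-Bb on the log2 scale.

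RT1-DOa and RT1-DOb encode the DO molecule, which restrains the peptide exchange catalysed by DM and is best known from B cells and thymic epithelium. RT1-DOa stood at 1.43, 0.931, 0.945 and 0.944 CPM in WT, at 0.966, 1.16, 1.13 and 0.552 in HET and at 4.29, 6.68, 4.43 and 4.68 in HOMO, a rise of 2.23 ± 0.25. RT1-DOb stood at 5.72, 3.72, 3.14 and 3.55 in WT, at 5.14, 4.20, 4.49 and 6.01 in HET and at 5.47, 9.43, 4.04 and 5.69 in HOMO. The groups overlapped for RT1-DOb, and only HOMO library 2 stood above all others. Its call rested on few libraries: the log2 fold change of 0.61 ± 0.26 had an adjusted p of 0.0483, and without HOMO replicate 2 it was 0.33 with an adjusted p of 0.212. Leaving out any of WT replicates 2, 3 or 4 or HOMO replicates 1 or 4 also ended that call, with adjusted p-values of 0.0535 to 0.128.

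The DM genes RT1-DMa and RT1-DMb, whose product swaps the invariant chain remnant for peptide, and RT1-Ha were too low to test. RT1-DMa held 0 to 7 counts per library, RT1-DMb 3 to 13 and RT1-Ha 0 to 6. Over 4 libraries each, WT, HET and HOMO gave 2, 3 and 20 counts of RT1-DMa. RT1-DMb gave 18, 23 and 41, and RT1-Ha 3, 8 and 15. RT1-Da, by comparison, held 112303 counts over the 12 libraries. Brd2, a gene next to the DM genes that was looked at after its values were seen, held only 10 to 67 counts per library. RT1-DMa and RT1-DMb were listed at bases 5240975 and 5227045 of chromosome 20, and RT1-Da at 4127644. Whether the low counts of the DM genes reflect expression or how reads of their region were mapped and counted was not tested.

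Cd74 (ENSRNOG00000018735) was the most abundant class II side member. It stood at 452, 420, 330 and 412 CPM in WT, at 567, 473, 422 and 481 in HET and at 737, 935, 719 and 1124 in HOMO. All HOMO values lay above all others, and the HET values lay on average above WT without a call (log2 fold change 0.27 ± 0.15). The rise in HOMO against WT was 1.12 ± 0.15 (adjusted p = 1.99e-05 by edgeR), and 1.20 without the library labelled replicate 3.

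Ciita, the class II transactivator, stood at 9.97, 8.97, 6.31 and 9.19 CPM in WT, at 9.66, 6.90, 7.81 and 9.56 in HET and at 15.1, 21.9, 13.1 and 18.2 in HOMO. The HOMO values again lay above the other 8, with the library labelled replicate 3 the lowest of them. Its log2 fold change was 0.99 ± 0.18 (adjusted p = 3.07e-04 by edgeR).

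**Figure D2:**
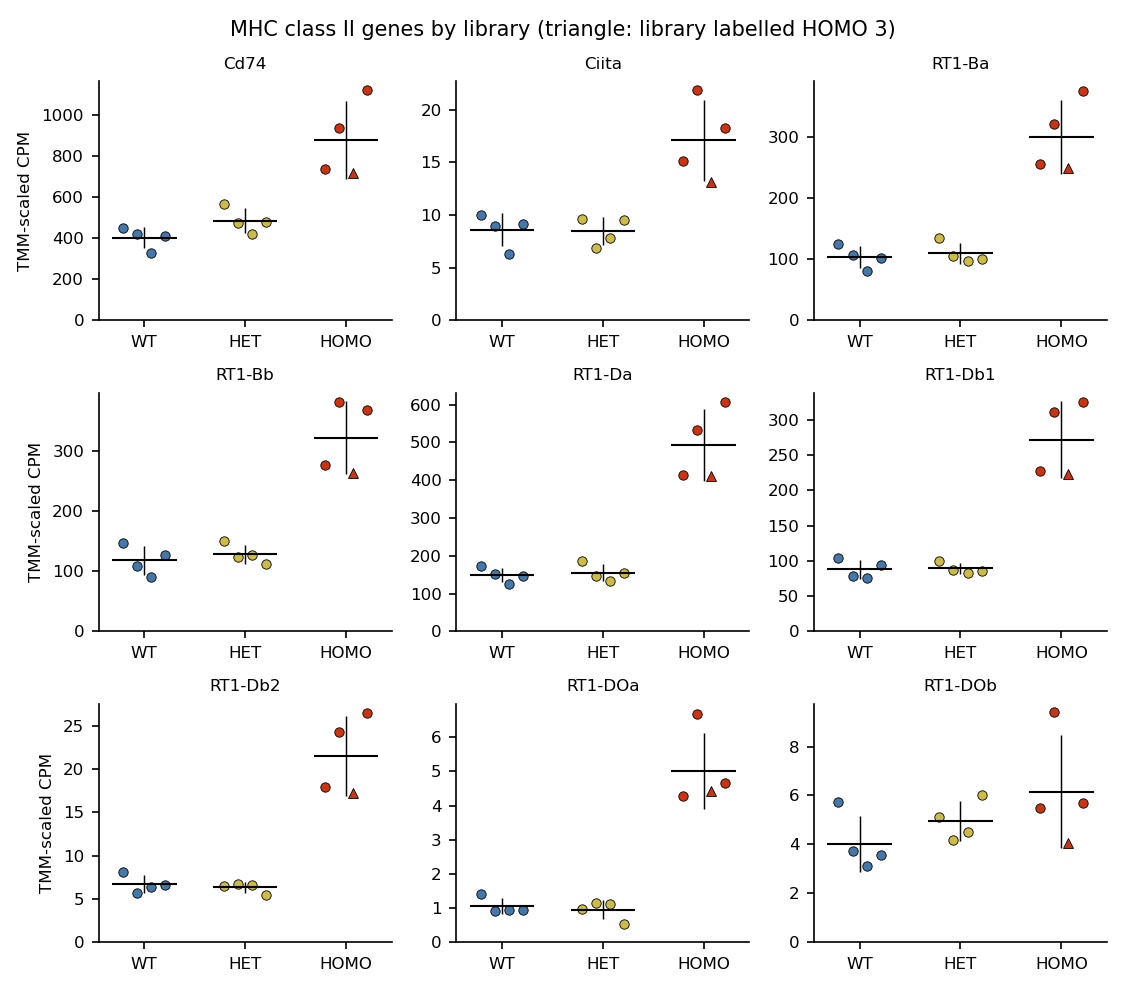
TMM-scaled CPM (y axis, from 0) of 9 class II side genes in each of the 12 libraries by genotype, with the group mean as a bar and the SD as a vertical line, and a triangle for the library labelled HOMO replicate 3. Apart from RT1-DOb, whose groups overlap, all HOMO points lie above the WT and HET points, as for RT1-Da at 412 to 608 against 125 to 186.

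Among the class I genes, RT1-A1 and RT1-A2, the heavy chains of the classical A region, were the most abundant per length. RT1-A2 (ENSRNOG00000030712) stood at 214, 161, 178 and 198 CPM in WT, at 185, 213, 236 and 169 in HET and at 370, 410, 349 and 316 in HOMO. RT1-A1 stood at 246, 182, 215 and 230 in WT, at 246, 237, 261 and 191 in HET and at 440, 470, 404 and 361 in HOMO. Both rose by a log2 fold change of 0.94 ± 0.12, with no overlap between HOMO and the other groups.

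The counts of RT1-A1 and RT1-A2 moved together: their ratio was 1.11 to 1.33 over the 12 libraries, with the highest value in HET library 1. The counting method is not given in the sources used here, so reads that fit both genes may have been split or shared. Differences between the RT1 alleles of the SS strain and the reference copies were not examined. Levels of single RT1 genes, and any difference between close paralogs, are therefore uncertain.

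Of the 6 RT1-CE genes, class I genes of the C, E and M region, all 6 rose. The RT1-CE4 level was 80.5, 61.8, 61.9 and 80.6 CPM in WT, 68.6, 68.3, 77.3 and 59.0 in HET and 138, 162, 157 and 158 in HOMO. RT1-CE7, whose fold change had the smallest standard error of the members, stood at 63.8, 51.4, 56.9 and 57.5 in WT, 60.5, 56.4, 58.6 and 48.9 in HET and 137, 137, 132 and 122 in HOMO. Their rises were 1.11 ± 0.11 and 1.20 ± 0.08, and the latter had the lowest adjusted p of all members, 4.36e-08 by edgeR.

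RT1-CE5 stood at 59.9, 49.7, 49.1 and 49.3 CPM in WT, at 45.5, 53.7, 62.8 and 40.5 in HET and at 102, 123, 118 and 114 in HOMO. RT1-CE10 stood at 41.1, 30.6, 32.6 and 39.9 in WT, at 33.3, 36.7, 29.0 and 26.8 in HET and at 62.8, 70.7, 61.3 and 54.2 in HOMO. The HOMO values of both lay apart above the rest, with rises of 1.14 ± 0.12 for RT1-CE5 and 0.79 ± 0.12 for RT1-CE10. RT1-CE1 stood at 11.1, 9.18, 8.77 and 11.0 in WT, at 8.69, 7.68, 14.2 and 8.27 in HET and at 15.5, 33.1, 22.3 and 23.6 in HOMO, a rise of 1.24 ± 0.23. RT1-CE3 stood at 12.9, 12.4, 13.0 and 13.9 in WT, at 5.17, 13.8, 14.5 and 10.3 in HET and at 21.7, 33.2, 27.6 and 30.3 in HOMO, a rise of 1.11 ± 0.25. HET library 1 was the low library for RT1-CE3.

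The nonclassical class I genes were mixed. RT1-M3-1, whose mouse counterpart presents N-formylated peptides, stood at 8.26, 6.05, 5.97 and 7.11 CPM in WT, at 6.32, 6.82, 5.94 and 8.21 in HET and at 32.7, 36.7, 21.5 and 23.8 in HOMO. Its rise of 2.06 ± 0.18 (adjusted p = 3.53e-07 by edgeR) was the largest of a class I RT1 gene above 5 CPM. RT1-S3 stood at 82.7, 64.0, 65.4 and 65.5 in WT, at 53.9, 68.7, 60.6 and 66.1 in HET and at 108, 175, 92.8 and 123 in HOMO, a rise of 0.84 ± 0.17. RT1-N3 overlapped between groups, at 12.4, 8.04, 7.45 and 10.6 in WT, 8.97, 10.2, 7.24 and 10.7 in HET and 13.1, 15.3, 8.51 and 11.2 in HOMO, and was not called (log2 fold change 0.32 ± 0.20).

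RT1-T24-3 and RT1-T24-4 varied more between libraries of 1 genotype than between genotypes. RT1-T24-4 stood at 57.4, 40.7, 50.6 and 40.0 CPM in WT, at 32.5, 39.9, 34.1 and 55.9 in HET and at 23.9, 64.9, 21.4 and 22.9 in HOMO. RT1-T24-3 stood at 23.6, 9.86, 28.9 and 11.3 in WT, at 10.6, 16.3, 12.8 and 21.1 in HET and at 14.5, 47.5, 7.21 and 9.69 in HOMO. The same libraries were high for both genes, namely WT replicates 1 and 3, HET replicate 5 and HOMO replicate 2. RT1-T24-4 was not called over all libraries (log2 fold change -0.50 ± 0.35, adjusted p = 0.211 by edgeR, and 0.11 with library size alone as the scale). Without HOMO replicate 2 it was called lower, at -1.05 (adjusted p = 3.60e-04 by edgeR) against WT and -0.83 (adjusted p = 0.00190) against HET. RT1-T24-3 was not called in either comparison, and its direction against WT turned from 0.10 ± 0.59 to -0.82 without that library.

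RT1-N2, at a mean under 5 CPM, had the lowest fold change of the members. It stood at 5.53, 0.888, 6.73 and 3.24 CPM in WT, at 0.0623, 1.87, 3.14 and 0 in HET and at 1.05, 1.82, 1.06 and 1.02 in HOMO. WT and HET each spread over a wide range while HOMO values were close together. The log2 fold change of -1.73 ± 0.91 in HOMO against WT was not called (adjusted p = 0.109 by edgeR). With only the 8 WT and HOMO libraries in the fit it was called lower (-1.73, adjusted p = 0.0142), as it was in the authors' deposited table (-1.72, false discovery rate 4.04e-04).

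**Figure D3:**
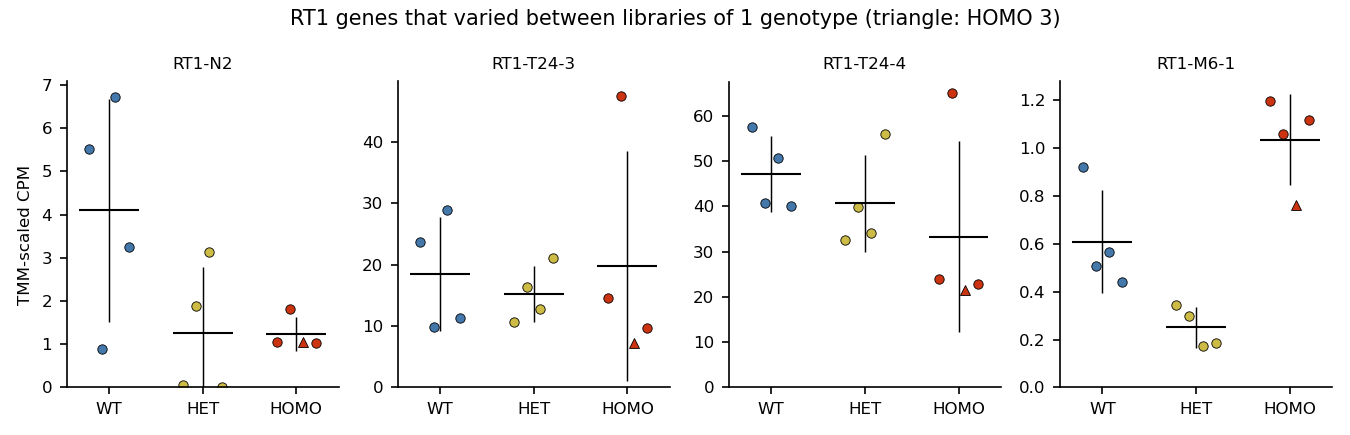
TMM-scaled CPM (y axis, from 0) of RT1-N2, RT1-T24-3, RT1-T24-4 and RT1-M6-1 in each of the 12 libraries by genotype, with group mean (bar) and SD (vertical line), and a triangle for the library labelled HOMO replicate 3. RT1-T24-4 reaches 64.9 in HOMO library 2 and 21.4 to 23.9 in the other 3 HOMO libraries.

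The remaining class I RT1 genes were low. RT1-M2 rose from 0.0378 to 0.222 CPM in WT to 0.260 to 0.882 in HOMO (log2 fold change 2.80 ± 0.59), with the library labelled replicate 3 the lowest of the HOMO group. RT1-M6-1 and RT1-M6-2 had equal counts in 8 of 12 libraries, all of WT and HET, and differed by at most 5 counts. With counts so alike they cannot be treated as separate measurements. Their promoter windows shared 96.8% of bases over 250 columns, but their transcripts were not compared. RT1-M6-1 stood at 0.921, 0.508, 0.567 and 0.440 in WT, at 0.343, 0.300, 0.175 and 0.184 in HET and at 1.20, 1.06, 0.761 and 1.12 in HOMO. It was called higher in HOMO against WT at an adjusted p of 0.0372 by edgeR (log2 fold change 0.75 ± 0.30), which ended without HOMO replicate 1, 2 or 4 or WT replicate 2, 3 or 4 (adjusted p 0.0703 to 0.117). RT1-T24-1 was not called, at 0.62 ± 0.27 (adjusted p = 0.0561 by edgeR), but was called by DESeq2 (0.62, adjusted p = 0.0419), by limma voom (0.67, adjusted p = 0.0228), with the filter of 1 CPM in 4 libraries (0.64, adjusted p = 0.0483) and without WT replicate 4 (0.96, adjusted p = 0.00322). RT1-M4, RT1-M5 and RT1-S2 were not tested, with 0 to 2, 0 to 4 and 1 to 32 counts per library.

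B2m (ENSRNOG00000017123), the light chain of all class I molecules, was the most abundant member and had the smallest rise among the 29 called. It stood at 1159, 1193, 960.4 and 1085 CPM in WT, at 1151, 1239, 1046 and 1228 in HET and at 1442, 1543, 1099.6 and 1334 in HOMO. HOMO libraries 1, 2 and 4 lay above all WT and HET values, while the library labelled replicate 3 lay among them. The log2 fold change against WT was 0.30 ± 0.11 (adjusted p = 0.0284 by edgeR), and 0.39 (adjusted p = 0.00397) without that library. Leaving out WT replicate 3 or 4 or HOMO replicate 1 or 2 ended the call, with adjusted p-values of 0.0642 to 0.0962.

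The 3 inducible proteasome subunits, which replace constitutive ones and change the peptides that are cut, rose the most among class I partners. Psmb8 stood at 7.59, 6.05, 4.20 and 6.20 CPM in WT, at 5.86, 5.02, 5.98 and 5.15 in HET and at 26.0, 29.0, 17.5 and 25.9 in HOMO, a rise of 2.03 ± 0.18. Psmb9 stood at 18.1, 12.4, 12.9 and 16.9 in WT, at 14.9, 15.3, 12.001 and 15.3 in HET and at 48.6, 57.4, 27.2 and 50.1 in HOMO, a rise of 1.60 ± 0.21. Psmb10 stood at 20.7, 16.6, 16.3 and 18.5 in WT, at 18.2, 15.9, 14.6 and 15.6 in HET and at 67.6, 79.0, 46.5 and 73.5 in HOMO, a rise of 1.89 ± 0.15. No HOMO value of the 3 genes fell among the others, and the library labelled replicate 3 was the lowest HOMO library for each. The constitutive subunits they replace, Psmb5, Psmb6 and Psmb7, fell by 0.40, 0.21 and 0.41 on the log2 scale with TMM, and stood at 0.21, 0.40 and 0.20 with library size alone, so their direction depends on the scale.

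The peptide pump and its bridge also rose. Tap1 stood at 21.7, 16.5, 12.4 and 18.2 CPM in WT, at 16.4, 16.6, 14.4 and 16.7 in HET and at 46.3, 49.8, 34.4 and 39.4 in HOMO, a rise of 1.30 ± 0.15. Tap2 stood at 2.03, 2.07, 1.85 and 2.30 in WT, at 2.40, 1.80, 2.14 and 1.78 in HET and at 5.53, 5.92, 4.37 and 5.39 in HOMO, a rise of 1.36 ± 0.16. Tapbp stood at 47.6, 51.0, 44.4 and 39.5 in WT, at 43.9, 45.1, 43.6 and 40.5 in HET and at 79.9, 94.0, 70.6 and 79.8 in HOMO, a rise of 0.83 ± 0.10. HOMO values did not overlap those of WT or HET for any of the 3 genes, while WT and HET overlapped. Nlrc5, the class I transactivator, stood at 6.16, 4.06, 3.33 and 4.40 in WT, at 4.21, 3.75, 3.58 and 6.19 in HET and at 13.7, 14.3, 10.3 and 11.6 in HOMO. Its rise was 1.47 ± 0.21 (adjusted p = 3.54e-05 by edgeR), also without overlap.

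**Figure D4:**
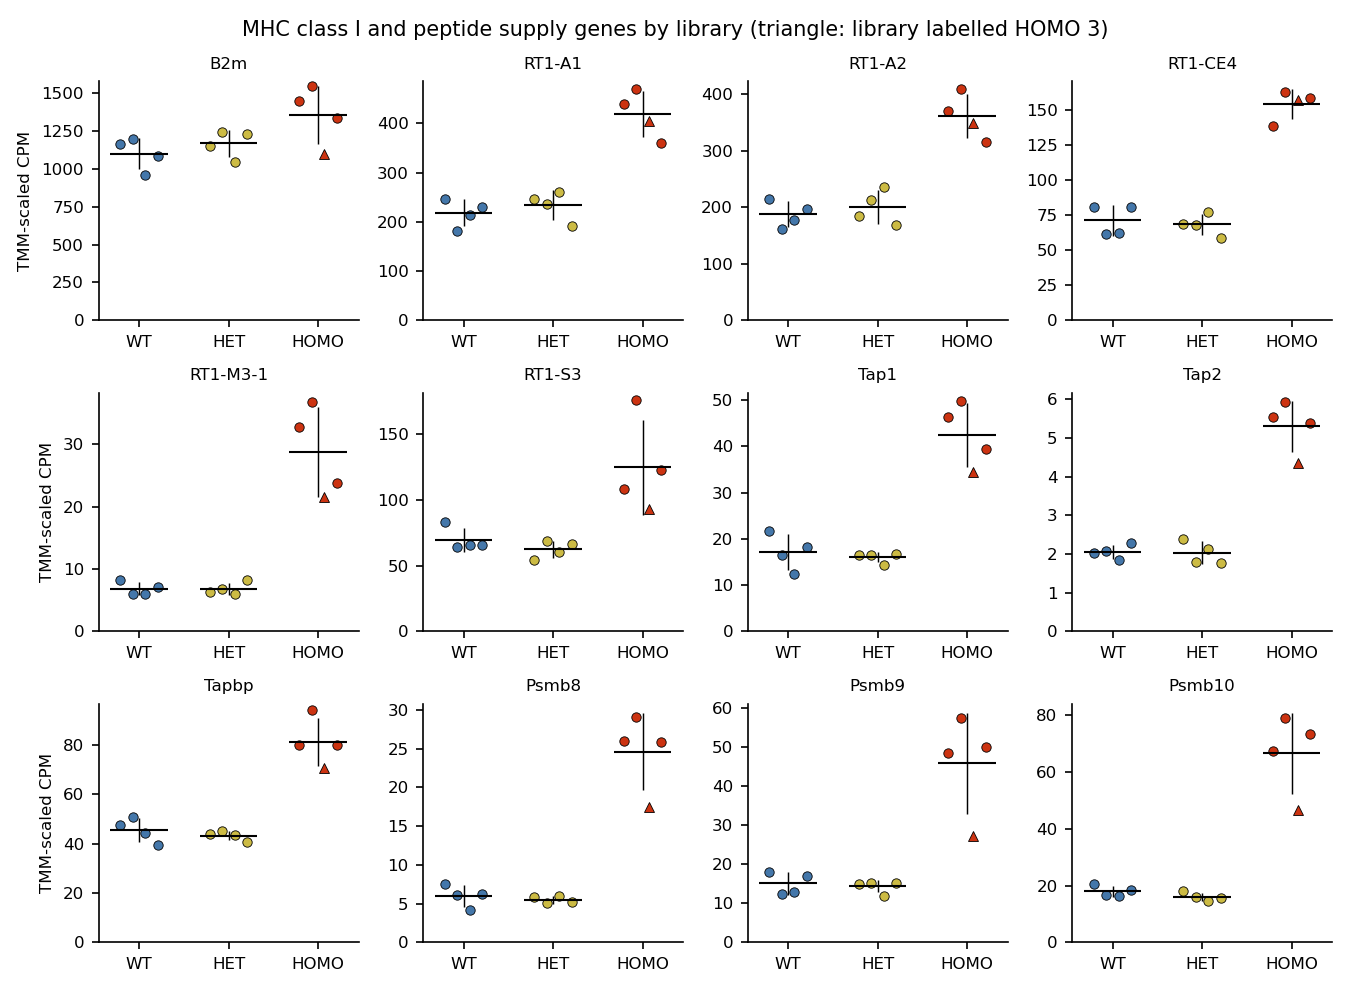
TMM-scaled CPM (y axis, from 0) of 12 class I side genes in each of the 12 libraries by genotype, with group mean (bar) and SD (vertical line), and a triangle for the library labelled HOMO replicate 3. B2m is the gene whose HOMO points overlap the others, at 1099.6 to 1543 against 960.4 to 1239.

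Over the 35 members tested, HOMO library 2 was the highest of its group for 27 and the library labelled HOMO replicate 3 the lowest for 24. In WT, library 1 was the highest for 27 and library 3 the lowest for 18. Ptprc followed the same order at the ends in WT, with 20.4 CPM in library 1 and 11.1 in library 3. In HOMO it was lowest in the library labelled replicate 3 (60.7) and highest in library 4 (78.8). The T cell and B cell sums were also lowest in the library labelled HOMO replicate 3 (92.4 and 4.91 CPM). The macrophage and dendritic cell sums were instead lowest in HOMO library 1 (2035 and 46.2 CPM). They stood at 2480 and 55.0 in the library labelled replicate 3. Whether marker and member levels go together by library was not tested.

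Compared per length, as TMM-scaled RPKM, the order of levels in WT was B2m at 602 ± 56.4 (SD, n = 4), Cd74 at 290 ± 37.3, RT1-A2 at 112 ± 13.7, RT1-A1 at 80.1 ± 9.94, RT1-Ba at 76.1 ± 13.7 and RT1-Da at 59.6 ± 7.70. RT1-A1 and RT1-Ba did not differ beyond their spread. In HOMO the order was B2m at 741 ± 104, Cd74 at 632 ± 137, RT1-Ba at 221 ± 44.1, RT1-A2 at 216 ± 23.5, RT1-Da at 197 ± 38.2 and RT1-A1 at 154 ± 17.3. There the means of B2m and Cd74 lay within their spread, as did those of RT1-Ba, RT1-A2 and RT1-Da. Within each HOMO library RT1-Ba still stood above RT1-Da, at 187, 236, 183 and 276 against 166, 213, 165 and 243.

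Summed over the RT1 genes, the class I level was 389 ± 46.5 RPKM for WT (SD, n = 4), 384 ± 33.3 for HET and 721 ± 96.6 for HOMO. The class II sum was 200.04 ± 31.7 in WT, 210.05 ± 27.0 in HET and 603 ± 117 in HOMO. The HOMO mean was thus 1.85 times the WT mean for class I and 3.02 times for class II.

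The class II to class I ratio of these sums was 0.534, 0.592, 0.424 and 0.511 in WT, 0.694, 0.501, 0.453 and 0.562 in HET and 0.729, 0.773, 0.745 and 1.13 in HOMO. All 4 HOMO ratios lay above the 8 others, by a narrow margin over HET library 1, and HOMO library 4 stood apart at the top. Group means were 0.515 ± 0.070 (WT), 0.553 ± 0.104 (HET) and 0.845 ± 0.192 (HOMO), with no test because the members were chosen with results known. The ratio of Cd74 to the class II sum was 1.36 to 1.52 in WT, 1.59 to 1.75 in HET and 1.01 to 1.10 in HOMO, 3 ranges that did not overlap. That of B2m to the class I sum was 1.38 to 1.95 in WT, 1.36 to 1.91 in HET and 0.898 to 1.13 in HOMO. The share of all raw counts taken by the members together was 0.253 ± 0.031% (WT), 0.263 ± 0.010% (HET) and 0.728 ± 0.089% (HOMO). This share uses library totals without TMM factors, so its rise is not on the scale of the sums above.

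**Figure D5:**
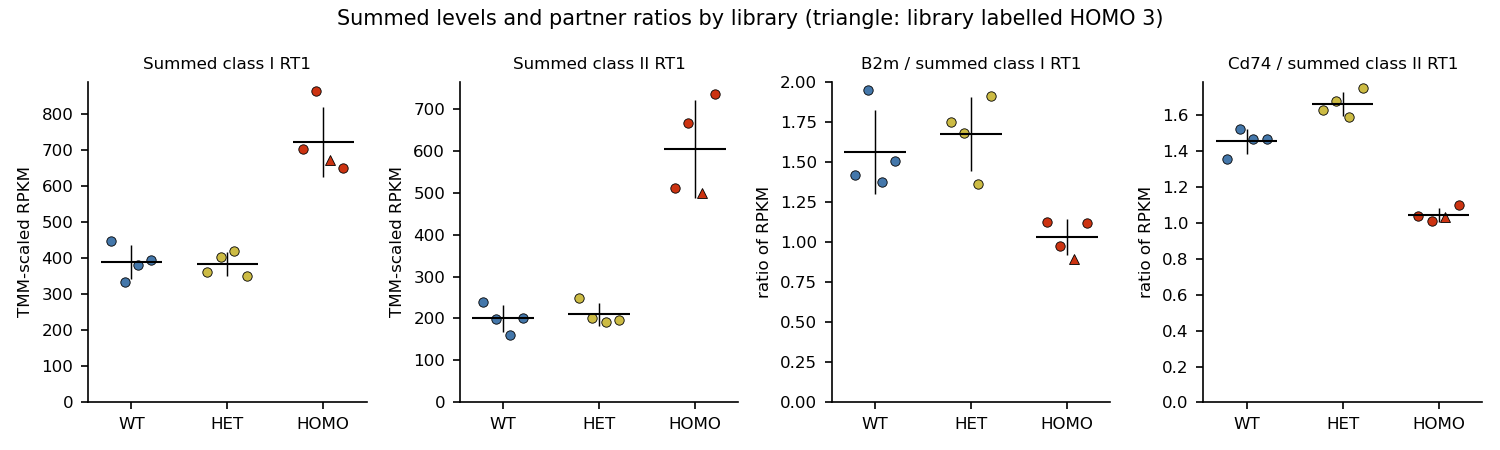
Summed TMM-scaled RPKM of class I and class II RT1 genes, and the ratios of B2m and Cd74 to those sums (y axes, from 0), in each of the 12 libraries by genotype, with group mean (bar) and SD (vertical line), and a triangle for the library labelled HOMO replicate 3. HOMO sums are higher and both ratios lower than in every WT and HET library, as for Cd74 to class II at 1.01 to 1.10 against 1.36 to 1.75.

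HET against WT compares 1 mutated allele with none. No member was called, and edgeR called 0.00% of all genes, as did DESeq2 and limma voom (0 genes each). At an unadjusted p under 0.05, 318 genes and 2 members passed. These 2 were RT1-M6-1 and RT1-M6-2, whose near-identical counts were lower in HET without overlap (log2 fold change -1.23 ± 0.35 and -1.23 ± 0.36). Non-overlap in that direction held for 0.744% of all genes, and no member lay apart above WT, against 0.877% of all genes. The median over the 35 members was -0.06. The mutated gene Xdh itself was lower in HET without overlap (log2 fold change -0.75) and was not called either. The lack of calls therefore does not show equal levels in HET and WT.

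HOMO against HET, which shares its HOMO libraries with the first comparison, gave 29 members higher and 0 lower out of 35. The background was 70.6% of all genes called and 36.2% called higher. The median was 1.28, and 29 members did not overlap, against 32.7% of all genes. Without the library labelled HOMO replicate 3 the count was 31. B2m (0.22 ± 0.11, adjusted p = 0.102 by edgeR) and RT1-DOb (0.31 ± 0.26) were not called there. B2m was called without the library labelled HOMO replicate 3 (0.30, adjusted p = 0.0169) and with the replicate number as a block (0.31, adjusted p = 0.0140). RT1-T24-1 (1.01 ± 0.28) and RT1-M6-2 (1.82 ± 0.34) were called there and not against WT. Whether the comparisons differ for these genes was not tested.

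Other genes of the pathway, 39 taken from textbook knowledge, went both ways in HOMO against WT on the TMM scale, on which 37.0% of all genes were called higher and 34.7% lower. Of 10 on the class I side, 4 rose and 4 fell, while with library size alone 7 were called higher and 0 lower. Tapbpl, a tapasin relative that edits class I peptides, rose by 2.18 ± 0.12, and the proteasome activator subunits Psme1 and Psme2 by 0.57 ± 0.06 and 0.85 ± 0.10. Erap1, which trims peptides, rose by 0.67 ± 0.12. The chaperone Canx fell by 0.61 on the log2 scale with TMM and was at 0.01 with library size alone.

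Of 11 genes on the class II side, 6 rose and 4 fell, and with library size alone 7 were called higher and 3 lower. Ctss, the protease that cuts the invariant chain in antigen-presenting cells, rose by 2.41 ± 0.18, and the lysosomal protease Ctsd by 1.89 ± 0.18. Other lysosomal proteases went the other way: Ctsl fell by 1.04, Ctsb by 1.22 and Lgmn by 1.01 on the log2 scale. March8, a ubiquitin ligase, fell by 0.61 with TMM and was at 0.00 with library size alone. The co-stimulatory genes Cd80, Cd86 and Cd40 rose by 3.04 ± 0.40, 1.28 ± 0.14 and 0.81 ± 0.29.

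Of 14 genes of transcription and interferon signalling, 12 were tested, 8 rose and 2 fell, while with library size alone 10 were called higher and 0 lower. The interferon gamma receptor chain Ifngr2 rose by 1.37 ± 0.07 and the transcription factor Irf1 by 1.65 ± 0.14. Rfxank and Nfyc, subunits of the factors bound at the X and Y boxes, fell by 0.54 and 0.51 with TMM and were at 0.07 and 0.10 with library size alone. Ifng itself was too low to test, and Rfxap was listed at 0 in every library. Of 4 class I-like genes, 3 rose, led by Hfe, which controls iron uptake (1.53 ± 0.15), and Mr1, which presents vitamin B metabolites (3.06 ± 0.30). In HET against WT 0 of these 37 tested genes were called.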

How the data were processed

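Raw read counts per gene, deposited by the authors, were analysed for 12 libraries made with a stranded mRNA kit from Trizol RNA, per the labels' protocols. Build Rnor_6.0 and the tool edgeR 3.8.6 are listed, with no role, per the submitters' processing notes. The sources used here give no aligner, counter or strand setting. RPKM values deposited by the authors were used only as a check: a rebuild from counts, listed length and library total deviated by a median of 0.0416%. Log2 fold changes with a false discovery rate (adjusted p-value) were also deposited by the authors and are named as theirs.

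The filter on low counts was filterByExpr with a minimum count of 10 and a minimum total of 15. The genotype model used TMM factors, all 12 libraries and the robust quasi-likelihood test of edgeR 4.0.16 under R 4.3.3, adjusted by Benjamini-Hochberg over the 15856 genes tested. Levels are TMM-scaled CPM, or RPKM computed from these and the listed length. The fit was tested on simulated data in which far fewer genes changed than were called here in HOMO. That simulation does not show how the fit or its scale behaves when most genes differ. Promoters and motifs came from RefSeq tables of build GRCr8. The members, the other lists and the markers were chosen with earlier results of these data known. The 10 partners and each RT1 gene with a mean of at least 5 CPM are given per library, as are a few lower ones. Of the other pathway genes, those with the smallest p and those against their list's median are named, and a few more were chosen after their values were seen. Of the genes named by that rule, 1 is not reported here. Alternatives were DESeq2 1.42.0, voom of limma 3.58.1, RLE factors, library size alone, a blocking term for the replicate number, a fit of only the 8 libraries of a comparison, no filter, a filter of 1 CPM in 4 libraries, and leaving out each library. No libraries of a group held identical counts.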

Additional observations from a re-analysis of the deposited data

Results flagged for a closer look

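Of 117 groups of 4 libraries examined, 13 held a library that stood apart from the other 3 by the gap to its nearest neighbour. Chance gives about 1 in 20 for independent groups of normally distributed values. These groups reuse the same libraries and hold members that move together, so whether 13 is an excess cannot be judged. In WT, library 1 was the high one for RT1-CE5 (59.9 CPM against 49.1 to 49.7), RT1-S3 (82.7 against 64.0 to 65.5), RT1-DOa (1.43 against 0.931 to 0.945) and RT1-M2 (0.222 against 0.0378 to 0.0629). In HET, library 4 was the low one for Psmb9 (12.001 CPM against 14.9 to 15.3) and Tap1 (14.4 against 16.4 to 16.7), and the high one for RT1-CE1 (14.2 against 7.68 to 8.69). HET library 5 was the low one for RT1-Db2 (5.45 against 6.54 to 6.75).

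In HOMO, library 2 was the high one for RT1-T24-4 (64.9 CPM against 21.4 to 23.9), RT1-DOa (6.68 against 4.29 to 4.68) and RT1-N2 (1.82 against 1.02 to 1.06). The library labelled HOMO replicate 3 was the low one for RT1-M2 (0.260 CPM against 0.813 to 0.882). HOMO library 4 was the high one for the class II to class I ratio (1.13 against 0.729 to 0.773).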

How the results depend on the processing

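The calls of 26 of the 29 members that rose in HOMO against WT were kept under each alternative that tested them, as were those of 29 of 29 in HOMO against HET. The exceptions were B2m, RT1-DOb and RT1-M6-1. Besides libraries left out, edgeR on only the 8 libraries ended the calls of B2m (adjusted p 0.0539) and RT1-DOb (0.0809). That of RT1-DOb also ended with limma voom (0.0864) and with edgeR without a filter (0.0516). That of RT1-M6-1 ended with DESeq2 (0.0539) and with edgeR without a filter (0.0667). In the authors' deposited table their false discovery rates were 0.0832 (B2m), 0.0608 (RT1-DOb) and 0.0502 (RT1-M6-1). The filter of 1 CPM in 4 libraries tested 33 members, without RT1-M2 and RT1-M6-2, and called 29 against WT and 27 against HET. The count of members called ran from 26 to 31 (HOMO against WT) and from 29 to 31 (HOMO against HET) when 1 library was left out, and was 0 throughout in HET against WT. The genes called ran from 10926 to 11339 and from 10743 to 11178. Same-numbered libraries did not deviate together in every pair (correlations -0.13 to 0.44, the highest for HET 1 and HOMO 1). Differently numbered pairs were not compared, so whether a number marks a shared origin was not tested. With the replicate number as a block the members called were 29, 0 and 31 for HOMO against WT, HET against WT and HOMO against HET. With counts not divided by length the WT class II to class I ratio was 0.587. Some directions turned, and the cause was not tested. In HOMO against WT, RT1-T24-3 was at -0.19 with limma voom, at -0.19 with the replicate block and between -0.82 and 0.39 with 1 library left out (below 0 for WT 2, WT 4 and HOMO 2), and RT1-T24-4 was at 0.11 with library size alone. In HOMO against HET, RT1-T24-4 was at 0.35 with library size alone and RT1-T24-3 between -0.53 (HOMO 2 left out) and 0.66 with 1 library left out. RT1-N2 there was at 0.58 with library size alone, at 1.71 with limma voom and between -0.48 and 0.87 with 1 library left out. Summing repeated symbols was not run, since no member's symbol was repeated. Low counts limit RT1-M2, RT1-M6-1, RT1-M6-2 and the 6 members not tested.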
